A study of Mus musculus with 10 samples.

Results

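Fibroblast growth factor (FGF) receptors and the genes that report on and restrain their signal were examined in knee tissue, labelled articular cartilage, of mice with and without the microRNA gene Mir324. The group held 9 of the 35705 genes with a value, taken by symbol: the receptors Fgfr1, Fgfr2 and Fgfr3, the feedback inhibitors Spry1, Spry2, Spry4 and Dusp6, and the ETS-family transcription factors Etv4 and Etv5. The RNA came from the medial knee of 10 untreated mice, 5 labelled wild-type control and 5 labelled Mir324-null, with 1 library per mouse. Abundance was deposited as TPM, a unit relative to a fixed library total that allows for transcript length. Strain, sex, age, litter and the design of the null allele are not given in the sources used here. The series is concerned with the role of miR-324 in bone-forming and bone-resorbing cells, and the comparison asks which transcripts of this tissue differ between the genotypes.

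FGF ligands bind receptor tyrosine kinases together with heparan sulfate and activate the RAS, RAF, MEK and ERK kinase cascade. ERK signalling induces its own inhibitors: Sprouty proteins act on the cascade upstream of ERK, and the phosphatase DUSP6 removes the activating phosphates from ERK. ETV4 and ETV5 are induced by the same signal, and their transcripts are commonly read, with those of Spry genes and Dusp6, as a record of FGF activity. In cartilage FGFR3 restrains growth plate chondrocytes, FGFR1 has been linked to matrix breakdown in articular cartilage, and FGFR2 acts in bone-forming cells.

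The hairpin of Mir324 yields a pair of mature strands, whose sequences are shown because they define the sites searched for in the 9 genes. Both are on the plus strand of chromosome 11, miR-324-5p at 70012060 to 70012082 and miR-324-3p at 70012095 to 70012114 (RefSeq, GRCm38.p6). Capitals mark the seed, bases 2 to 8 from the 5′ end.
mmu-miR-324-5p: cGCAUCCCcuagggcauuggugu
mmu-miR-324-3p: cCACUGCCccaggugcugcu
The letters matching each seed, GGGATGC for miR-324-5p and GGCAGTG for miR-324-3p, were searched on the transcript strand alone, in the longest 3′ UTR that GENCODE M21 gives for each gene. Etv5 held the miR-324-3p letters 2 times in its 2161-base 3′ UTR (Etv5-201), at positions 61 and 844 from the stop codon. On chromosome 16, minus strand, these are 22383403 to 22383409 and 22382620 to 22382626 (GRCm38). The stretches around them are given 5′ to 3′ with the matching letters in capitals.
Etv5 site 1: ccaggcaaccgagGGCAGTGgttttg
Etv5 site 2: atccctcgggtggGGCAGTGcctact
Spry4 held 1 match to each strand in its 3559-base 3′ UTR, and the miR-324-5p match was followed by the adenosine that makes it an 8-base site. The 3′ UTRs of the other 7 genes, from 624 bases in Etv4 to 1797 in Fgfr1, held neither motif. Among 12592 tested protein-coding genes with a 3′ UTR, of median length 1149 bases, 8.50% held the miR-324-5p letters and 15.4% the miR-324-3p letters. These matches are letters in a sequence, and binding was not measured.

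The labels describe the tissue as articular cartilage and the cell type as chondrocyte. The 9 chondrocyte markers summed to between 1929 and 6145 TPM in wild-type and between 1627 and 2917 TPM in null libraries, with Matn3 and Col9a1 under a mean of 1 TPM. Transcripts of other cells were also abundant. The 7 erythroid markers summed to 112640 to 198844 TPM in wild-type and 159238 to 263631 TPM in null libraries, and the 8 neutrophil markers to 57791 to 113447 and 56817 to 116302 TPM. The library of wild-type replicate 1 was unlike the rest: on principal component 1, with 26.7% of the variance, it scored -54.8 and the other 9 mice -12.1 to 30.1.

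Over all genes, limma on log2(TPM + 1) found 0 of 13841 genes (0%) at a Benjamini-Hochberg adjusted p under 0.05, and 1603 (11.6%) at an unadjusted p under 0.05. Of the latter 1011 (7.3% of genes tested) were lower in null mice and 592 (4.28%) higher. This split depended on the scaling: median ratio scaling gave 888 lower and 875 higher, quantile normalization 929 and 884, and rescaling without haemoglobin genes 591 and 1227. It also depended on single mice, with 620 lower and 527 higher without wild-type replicate 1, 626 and 480 without null replicate 1, and 668 and 561 without null replicate 5. Adding the osteoblast and osteocyte score to the fit gave 110 and 711. The estimated difference lay below 0 for 8307 genes (60%), and all 5 null mice were below all 5 wild-type mice for 147 (1.06%).

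All 8 of the 9 genes that reached a mean of 1 TPM, and so entered the test, had a lower estimate in null mice. Over all genes tested, 60% had a lower estimate. Many of the 8 genes rose and fell together across the mice, so these are not 8 separate observations. The median difference of the 8 was -0.32 on the log2(TPM + 1) scale, beside -0.05 over all genes tested. Without wild-type replicate 1 these medians were -0.21 and -0.02, with all 8 estimates still below 0. None passed the adjusted threshold (limma, adjusted p between 0.380 and 0.689), and 1 of the 8, Fgfr2, was under 0.05 before adjustment, which is 12.5% beside the 11.6% of all genes. For each of the 9 genes the 2 groups of mice overlapped. In bulk tissue, fewer cells of a type and less RNA per cell cannot be told apart.

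**Figure D1:**
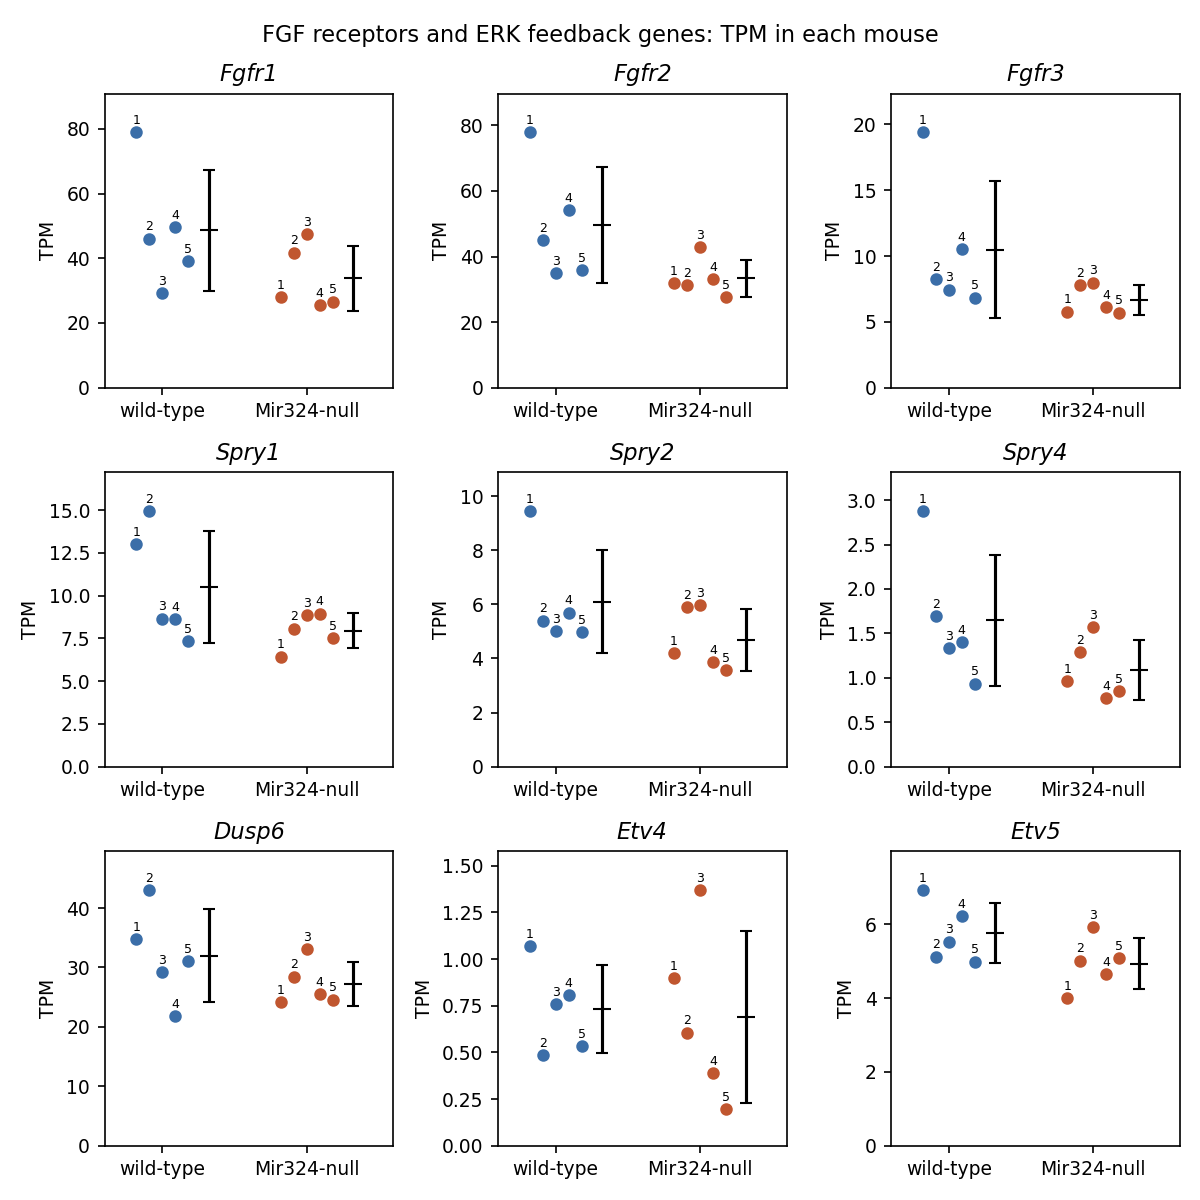
TPM of the 9 genes in each of 10 mice, with 1 panel per gene and its own axis from 0; points are mice, numbers are replicates, and black marks give the mean ± SD of 5 mice. Wild-type replicate 1 is the highest mouse for Fgfr1, Fgfr2, Fgfr3, Spry2, Spry4 and Etv5, and the groups overlap in every panel.

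The 3 receptors were lower on average in null mice, with estimates of similar size on the log2 scale, and 1 wild-type animal had the highest value of all 10 mice for each. Fgfr2 (ENSMUSG00000030849, chromosome 7, 130162451 to 133123350 in GENCODE M21, GRCm38), the receptor for which skeletal and epithelial splice forms are best known, had 78.0, 45.1, 34.9, 54.2 and 35.8 TPM in wild-type replicates 1 to 5. In the null mice it had 31.9, 31.2, 42.8, 33.1 and 27.7 TPM. Of the null mice, 4 were below the lowest wild-type mouse, and null replicate 3 lay among the wild-type values. The means were 49.6 ± 17.7 and 33.3 ± 5.65 TPM (SD, n = 5 each), a log2 difference of -0.51 with a standard error of 0.204. Its unadjusted limma p was 0.0291 and its adjusted p 0.380, and the two-sided exact permutation test gave p = 0.0476. The unadjusted p was above 0.05 without wild-type replicate 1 (0.0580, difference -0.33), wild-type replicate 4 (0.0638), null replicate 1 (0.0512), null replicate 2 (0.0550) or null replicate 5 (0.0676), and also after rescaling without haemoglobin genes (0.0554).

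Fgfr1 (ENSMUSG00000031565, chromosome 8, 25513654 to 25575718) had 79.0, 46.1, 29.2, 49.6 and 39.1 TPM in wild-type mice. Null mice had 28.0, 41.7, 47.4, 25.4 and 26.6 TPM. The null mice fell into 3 low and 2 higher values, and the 2 higher ones, replicates 2 and 3, lay within the wild-type range. The means were 48.6 ± 18.7 and 33.8 ± 10.0 TPM (SD, n = 5 each), a log2 difference of -0.48 with a standard error of 0.251 (limma adjusted p = 0.498, exact permutation p = 0.135). Without wild-type replicate 1 the difference was -0.29.

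Fgfr3 (ENSMUSG00000054252, chromosome 5, 33721674 to 33737068), the receptor of growth plate chondrocytes, was the least abundant of the 3. It had 19.4, 8.22, 7.45, 10.5 and 6.84 TPM in wild-type mice. In null mice the values were 5.76, 7.77, 7.98, 6.10 and 5.70 TPM. Wild-type replicate 1 had 2.48 times the median of the other wild-type mice, and without it the wild-type mean moved from 10.5 ± 5.19 (SD, n = 5) to 8.26 ± 1.61 TPM (SD, n = 4), beside 6.66 ± 1.12 TPM in null mice (SD, n = 5). The log2 difference was -0.50 with all mice (standard error 0.237, limma adjusted p = 0.442, exact permutation p = 0.0635) and -0.27 without that mouse. Counting only protein-coding transcripts brought all 3 receptors under an unadjusted p of 0.05, at 0.0343 for Fgfr1, 0.00862 for Fgfr2 and 0.0187 for Fgfr3, with adjusted p of 0.342, 0.238 and 0.286 (limma). Of all genes tested in that way, 1640 of 12292 were under the same unadjusted threshold.

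The mean shares of the 3 receptors in their sum were close in the genotypes, in a comparison chosen after the data had been seen. Of the summed TPM of the 3 receptors, Fgfr1 made up 44.6% ± 2.73 in wild-type and 45.2% ± 4.82 in null mice, Fgfr2 45.9% ± 2.14 and 45.7% ± 4.81, and Fgfr3 9.46% ± 1.22 and 9.09% ± 0.632 (SD, n = 5 each). The sum itself ran from 71.5 to 176.5 TPM in wild-type and from 60.0 to 98.1 TPM in null mice. Dusp6 stood at 0.322 ± 0.118 of that sum in wild-type and 0.373 ± 0.0296 in null mice, and Spry1 at 0.102 ± 0.0331 and 0.110 ± 0.0204 (SD, n = 5 each). None of 6 such ratios had a difference of group means that passed the test (two-sided exact permutation test, adjusted p = 0.944 for each). With 5 mice per genotype this does not show that the ratios are equal. Wild-type replicates 1 and 4, with the largest receptor sums, had the lowest Dusp6 ratios, at 0.197 and 0.191. That sum is the denominator of the ratio, so a large sum lowers the ratio by construction.

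Alternative splicing of each receptor gives a IIIb or a IIIc form of the third immunoglobulin-like domain, which sets which ligands bind. IIIb forms are typical of epithelia and IIIc forms of mesenchyme, to which cartilage and bone belong. Transcripts were assigned to a form by which of these exons GENCODE M21 places in them.

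IIIc transcripts were the more abundant form of all 3 receptors in every mouse. Fgfr1 IIIc transcripts had 53.6, 30.1, 19.3, 35.3 and 25.2 TPM in wild-type and 18.3, 25.3, 33.1, 18.5 and 15.4 TPM in null mice. Fgfr1 IIIb transcripts held 24.1% ± 1.35 of IIIb and IIIc in wild-type and 22.3% ± 2.81 in null mice (SD, n = 5 each). This IIIb share was the steadiest of the 3 between mice. For Fgfr2 it was 4.91% ± 3.41 and 8.49% ± 5.38, and for Fgfr3 13.9% ± 8.54 and 9.56% ± 11.1 (SD, n = 5 each), with 1 library at 0 for each of these IIIb forms. Fgfr2 IIIc transcripts had 11.7 to 15.9 TPM in wild-type and 6.82 to 11.8 TPM in null mice, and null replicate 3 alone reached the wild-type range.

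The share of a gene that could be assigned to a form was uneven. IIIb and IIIc transcripts held 88.3% ± 3.52 of Fgfr1 in wild-type mice and 87.7% ± 10.7 of Fgfr3, but 29.7% ± 5.63 of Fgfr2 (SD, n = 5 each). The most abundant Fgfr2 transcript, Fgfr2-217, contains neither exon and held 26.8% ± 6.63 of the gene in wild-type and 22.1% ± 4.07 in null mice (SD, n = 5 each). In GENCODE M21, 2 of its 7 exons lie beyond the end of all other Fgfr2 transcripts, 130266263, and it alone accounts for the length of the annotated span. With it left out, in an alternative chosen after seeing the data, Fgfr2 had a wild-type mean of 36.1 ± 12.2 and a null mean of 26.0 ± 4.51 TPM (SD, n = 5 each), a log2 difference of -0.42 with an exact permutation p of 0.135, beside 0.0476 for the whole gene. Fgfr1-203 held 50.6% ± 2.25 and 50.4% ± 3.08 of Fgfr1. Dusp6-201 held 62.0% ± 4.84 and 59.6% ± 5.89 of Dusp6 (SD, n = 5 each). For other genes the division between transcripts varied widely between mice, as for Spry1-203, at 2.28% to 97.2% of Spry1 in wild-type mice. Of 9 transcript shares tested, 0 passed adjustment and 0 were under an unadjusted p of 0.05 (exact permutation test, smallest p = 0.222, smallest adjusted p = 0.762). TPM of single transcripts are estimates of how shared reads divide, and their error is unknown here.

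**Figure D2:**
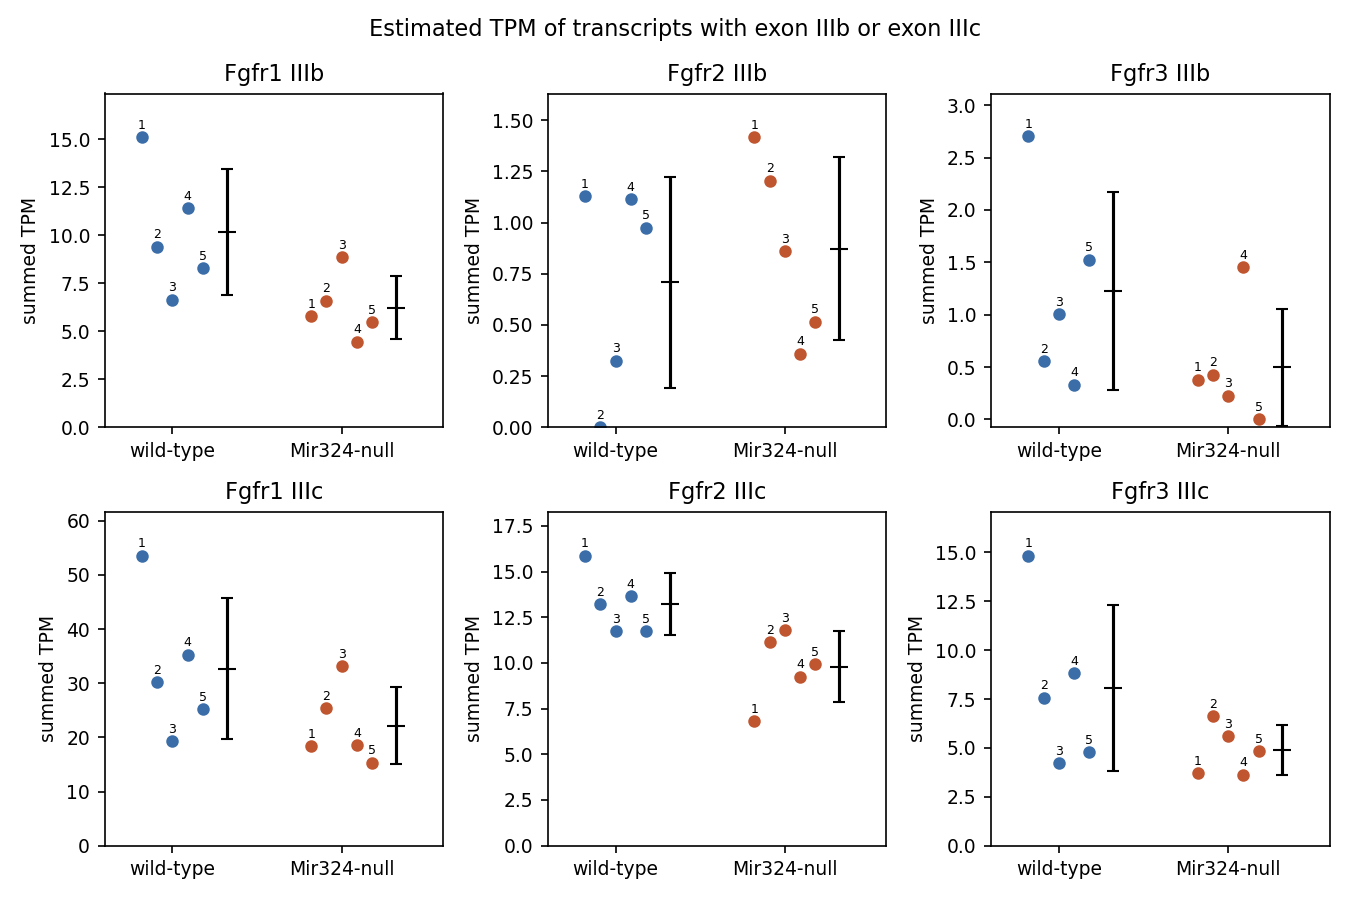
Summed TPM of transcripts that contain exon IIIb (upper row) or exon IIIc (lower row) of each receptor, per mouse, with the mean ± SD of 5 mice in black; numbers are replicates and each panel has its own axis. Fgfr1 IIIc lies between 15.4 and 53.6 TPM, Fgfr1 IIIb between 4.45 and 15.1 TPM, and the IIIb form of Fgfr2 reaches at most 1.42 TPM.

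The feedback inhibitors were also lower on average in null mice, and none passed the adjusted test. Dusp6 (ENSMUSG00000019960, chromosome 10, 99263231 to 99267489), the ERK phosphatase, was the most abundant of them. It had 34.8, 43.1, 29.2, 21.9 and 31.1 TPM in wild-type and 24.2, 28.4, 33.1, 25.6 and 24.6 TPM in null mice. The lowest value of all 10 belonged to wild-type replicate 4, and all 5 null mice lay inside the wild-type range. Its log2 difference was -0.21 with a standard error of 0.161 (limma adjusted p = 0.689, exact permutation p = 0.286), -0.09 with wild-type replicate 2 left out and -0.33 with wild-type replicate 4 left out, where its unadjusted p was 0.0355. Counted over protein-coding transcripts alone, which held 64.3% of its TPM, the difference was -0.36 (limma adjusted p = 0.450).

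Spry1 (ENSMUSG00000037211, chromosome 3, 37639947 to 37644598) had 13.0, 15.0, 8.66, 8.63 and 7.33 TPM in wild-type and 6.44, 8.07, 8.84, 8.94 and 7.50 TPM in null mice. Wild-type replicates 1 and 2 were high, and the other 3 lay among the null values. The difference of -0.32 (standard error 0.182, limma adjusted p = 0.530) was -0.20 when wild-type replicate 2 was left out and -0.24 when replicate 1 was.

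Spry2 (ENSMUSG00000022114, chromosome 14, 105891947 to 105896819) had 9.45, 5.39, 5.00, 5.69 and 4.98 TPM in wild-type and 4.20, 5.88, 5.97, 3.87 and 3.56 TPM in null mice. Its null values fell into the same 3 low and 2 higher mice as those of Fgfr1. Without wild-type replicate 1 the difference of -0.31 (standard error 0.189, limma adjusted p = 0.585) was -0.16, and the remaining wild-type mice averaged 5.26 ± 0.340 TPM (SD, n = 4). Spry4 was near the filter, at 2.88, 1.69, 1.34, 1.40 and 0.934 TPM in wild-type and 0.961, 1.29, 1.57, 0.768 and 0.850 TPM in null mice. Again null replicates 2 and 3 were the higher ones. Its difference was -0.32 (standard error 0.202, limma adjusted p = 0.599), and -0.17 without wild-type replicate 1.

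The ETS factors showed no difference past the test. Etv5 (ENSMUSG00000013089, chromosome 16, 22381309 to 22439719), the gene with the pair of miR-324-3p matches printed above, had 6.93, 5.12, 5.53, 6.21 and 4.99 TPM in wild-type and 4.00, 5.01, 5.91, 4.65 and 5.08 TPM in null mice. It was the steadiest of the 9 among wild-type mice, with a coefficient of variation of 14.1% in either genotype. Its log2 difference was -0.19 with a standard error of 0.129 (limma adjusted p = 0.632, exact permutation p = 0.111), and -0.13 without wild-type replicate 1. Etv4 (ENSMUSG00000017724, chromosome 11, 101769742 to 101785371) stayed under a mean of 1 TPM and did not enter the limma test. It had 1.07, 0.483, 0.758, 0.807 and 0.535 TPM in wild-type and 0.896, 0.605, 1.37, 0.387 and 0.196 TPM in null mice, with means of 0.731 ± 0.235 and 0.691 ± 0.461 (SD, n = 5 each). The null mice spanned both ends of the range (exact permutation p = 0.738), and the sign of the difference, -0.06, turned without wild-type replicate 1 or null replicate 5.

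Ranked by mean TPM, wild-type mice had Fgfr2, Fgfr1, Dusp6, Spry1, Fgfr3, Spry2, Etv5, Spry4 and Etv4 in descending order. Several neighbours could not be separated: Fgfr2 was above Fgfr1 in 2 of 5 mice, Spry1 above Fgfr3 in 3, and Spry2 above Etv5 in 2. Dusp6 was above Spry1, Fgfr3 above Spry2, Etv5 above Spry4 and Spry4 above Etv4 in all 5. Null mice had the same order except that Fgfr1 and Fgfr2, and Etv5 and Spry2, changed places, with the gene ranked higher above the other in 2 of 5 mice for each pair.

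**Figure D3:**
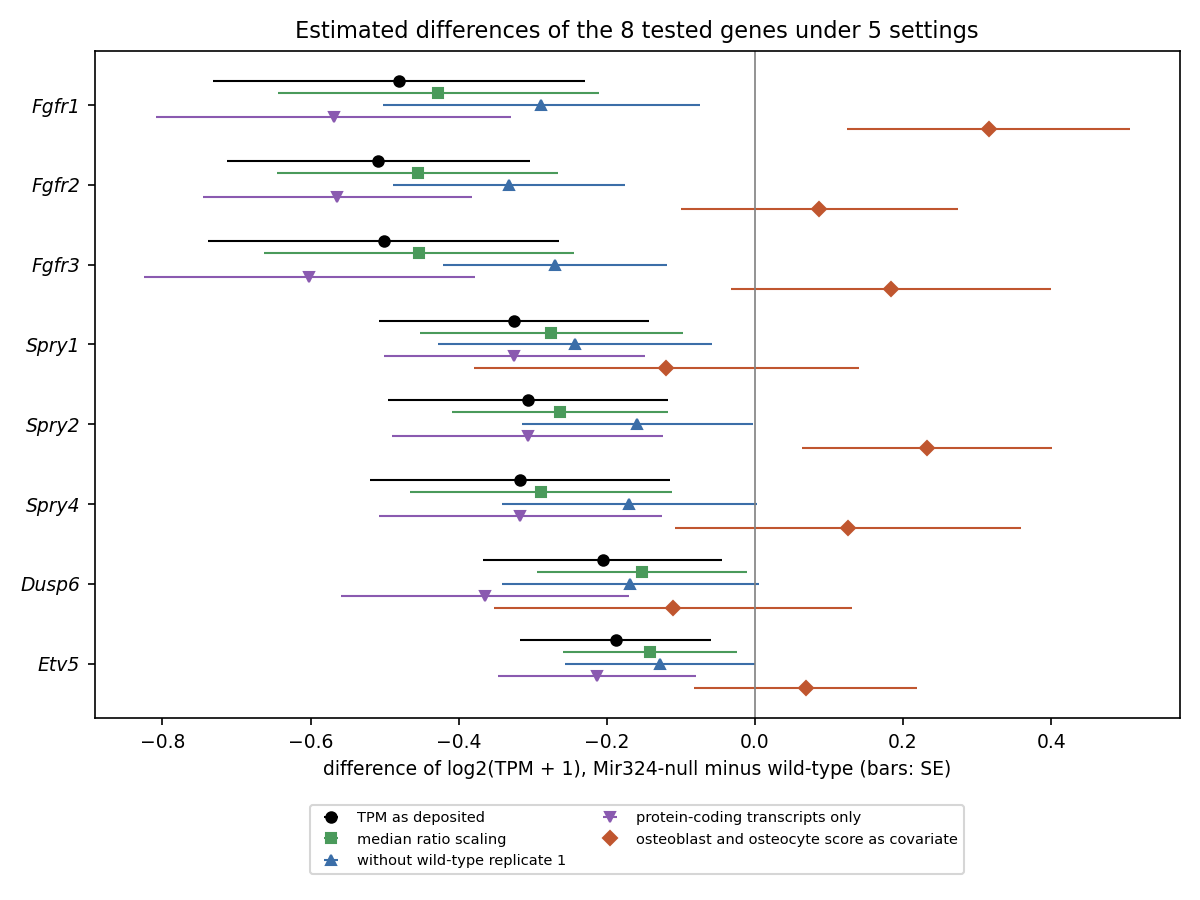
Difference of log2(TPM + 1), null minus wild-type, with standard errors from limma, for the 8 genes tested and 5 ways of fitting. Estimates lie below 0 for all 8 genes on the deposited scale (black), after median ratio scaling, without wild-type replicate 1 and over protein-coding transcripts alone, and above 0 for 6 of 8 genes once that fit includes the osteoblast and osteocyte score.

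Markers of bone cells, and of several other cell types, were also lower on average in null mice. Over all genes tested, 60% had a lower estimate. All 10 osteoblast and osteocyte markers had lower estimates in null mice, and their sum was 6376 to 14918 TPM in wild-type and 3603 to 7408 TPM in null mice. Their score, the mean log2(TPM + 1) of the list, differed by -0.88 (exact permutation p = 0.0238, adjusted over 11 lists 0.109). The osteoclast list differed by -0.95 (adjusted 0.109), with 6 of 6 tested markers lower and sums of 1435 to 3243 and 942 to 1933 TPM. The chondrocyte list differed by -0.61 (adjusted 0.125), with 6 of 7 tested markers lower, and by -0.39 without wild-type replicate 1. Scores of 3 lists were higher on average in null mice. The erythroid list differed by 0.46 (adjusted 0.122), with 7 of 7 markers higher. The fibroblast and synovium list differed by 0.41 (adjusted 0.437), or 0.66 without wild-type replicate 1, and the skeletal muscle list by 0.37 (adjusted 0.437). In these lists 2 of 7 and 0 of 3 tested markers were lower. The muscle score rests on the 3 of 8 listed genes that passed the filter. It was high in null replicates 2 (4.04) and 3 (3.14), and 2.18 to 2.45 in the other null mice, beside a wild-type mean of 2.47. Hypertrophic chondrocyte and adipocyte markers were also lower on average (-0.70 and -0.62, adjusted 0.109 for each), with 5 of 5 tested markers lower in each list. So were the endothelial (-0.23, adjusted 0.125, 5 of 6 markers lower), B lineage (-0.32, adjusted 0.207, 6 of 7) and neutrophil lists (-0.09, adjusted 0.746, 8 of 8). None of the 11 lists passed adjustment, and no marker of the bone, cartilage or erythroid lists was at 0 in every library.

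When the osteoblast and osteocyte score entered the fit as a covariate, chosen with earlier results of these data known, 2 of the 8 genes had estimates below 0. The median of the 8 genes moved from -0.32 to 0.11, and that of all genes tested from -0.05 to 0.09. The estimates became 0.32 for Fgfr1, 0.09 for Fgfr2, 0.18 for Fgfr3, 0.23 for Spry2, 0.13 for Spry4 and 0.07 for Etv5, and stayed below 0 for Spry1 (-0.12) and Dusp6 (-0.11), none past a threshold (limma, adjusted p between 0.885 and 0.973). The part of bone cell content in the difference between genotypes was not tested.

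Across the 10 mice, the 3 receptors, Spry2, Spry4 and Etv5 correlated by Pearson r with both the osteoblast and osteocyte score and the chondrocyte score. With the osteoblast and osteocyte score, Fgfr2 had a Pearson r of 0.900 (permutation test, adjusted over 27 relations p = 0.000945) and a Spearman rho of 0.915 (adjusted p = 0.0146). Fgfr1 had r = 0.895 (adjusted p = 0.00148) and rho = 0.867 (adjusted p = 0.0157), Fgfr3 r = 0.885 (adjusted p = 0.000945) and rho = 0.855 (adjusted p = 0.0157), and Spry2 r = 0.885 (adjusted p = 0.00204) and rho = 0.745 (adjusted p = 0.0598; permutation tests). With the genotype means removed r was 0.839 for Fgfr2, 0.895 for Fgfr1, 0.845 for Fgfr3 and 0.893 for Spry2 (permutation within genotype, adjusted p = 0.0106 for each). Wild-type replicate 1 and null replicate 5 were the 2 libraries farthest from the median score. Without them r was 0.813 for Fgfr2, 0.805 for Fgfr1, 0.913 for Fgfr3 and 0.745 for Spry2, with exact permutation p of 0.0113, 0.00952, 0.00305 and 0.0340, and none of these passed adjustment (0.0763, 0.0763, 0.0606 and 0.101).

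The r with the osteoblast and osteocyte score was lower for Dusp6 and Spry1, the inhibitors whose values were least like those of the receptors. Dusp6 had r = 0.392 (adjusted p = 0.271) and rho = 0.455 (adjusted p = 0.245), and Spry1 had r = 0.575 (adjusted p = 0.122) and rho = 0.394 (adjusted p = 0.297; permutation tests). Whether their r differed from that of the receptors was not tested. Spry4 (r = 0.806, adjusted p = 0.00906, rho = 0.697, adjusted p = 0.0836) and Etv5 (r = 0.838, adjusted p = 0.00872, rho = 0.709, adjusted p = 0.0804) passed by Pearson r only. Without wild-type replicate 1 and null replicate 5, r was 0.603 for Spry4 and 0.897 for Etv5 (exact permutation p = 0.00449 for Etv5, adjusted p = 0.0606). Etv4 did not pass by r (0.551, adjusted p = 0.132) or rho (0.527, adjusted p = 0.186; permutation tests). With the chondrocyte score, Dusp6 had r = 0.301 (permutation test, adjusted p = 0.398). Without wild-type replicates 1 and 4 it had r = 0.724 (exact permutation p = 0.0386, adjusted p = 0.101). The r of Spry1 with that score was 0.561, and 0.434 without those libraries.

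Of the 27 relations, over 9 genes and the osteoblast, chondrocyte and erythroid scores, 15 passed adjustment by Pearson r with all mice and 6 by Spearman rho. With the 2 farthest libraries of each score left out, 0 passed over the 8 mice that remained, and 12 had an unadjusted exact p under 0.05. With the chondrocyte score r was 0.921 for Fgfr1, 0.943 for Fgfr2, 0.952 for Fgfr3 and 0.900 for Spry2 (permutation tests, adjusted p = 0.00108, 0.00113, 0.00113 and 0.00280). The rho with it was 0.855, 0.867, 0.842 and 0.745 (adjusted p = 0.0157, 0.0157, 0.0157 and 0.0598). Without wild-type replicates 1 and 4 these r were 0.822, 0.728, 0.801 and 0.803 (exact permutation, adjusted p = 0.0863, 0.101, 0.0863 and 0.0863). Relations to the erythroid score were inverse for the 4 genes, with r = -0.781 (adjusted p = 0.0148) and rho = -0.648 (0.119) for Fgfr1, -0.680 (0.0541) and -0.588 (0.147) for Fgfr2, and -0.724 (0.0343) and -0.624 (0.126) for Fgfr3 (permutation tests). For Spry2 r was -0.794 (adjusted p = 0.0144) and rho -0.564 (adjusted p = 0.162; permutation tests), and r was -0.766 without wild-type replicates 1 and 5 (exact permutation p = 0.0316, adjusted p = 0.101). With the genotype means removed, none of these 4 erythroid relations passed (permutation within genotype, adjusted p = 0.0805 for Fgfr1, 0.347 for Fgfr2, 0.229 for Fgfr3 and 0.0711 for Spry2). After median ratio scaling Spry2 alone passed (permutation tests, adjusted p = 0.0331, beside 0.0560, 0.245 and 0.122 for Fgfr1 to Fgfr3). TPM has a fixed total, so a larger erythroid part lowers the TPM of other genes by construction. The scores share libraries with one another, so that the relations to them are not separate observations.

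**Figure D4:**
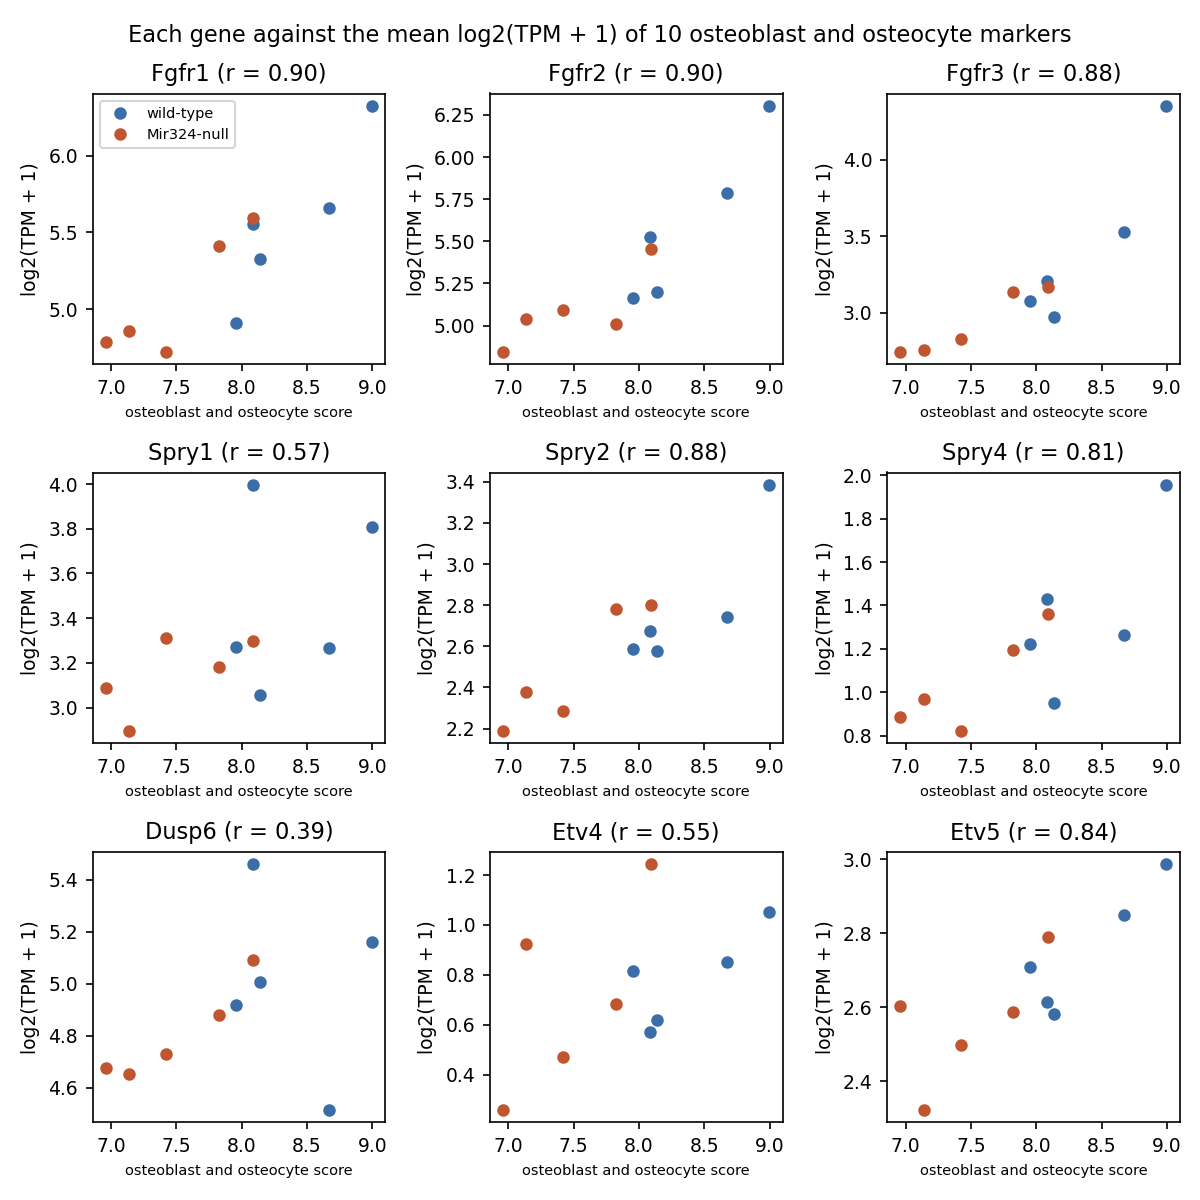
Each gene's log2(TPM + 1) against the osteoblast and osteocyte score, the mean log2(TPM + 1) of 10 markers, with 1 point per mouse and the genotype in colour. Fgfr1 (r = 0.90) and Fgfr2 (r = 0.90) increase along the score, while the points of Dusp6 (r = 0.39) and Spry1 (r = 0.57) scatter more widely.

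As a description over the same 10 libraries, all 36 pairs of the 9 genes had a Pearson r above 0, and 12 pairs had an r of at least 0.8. Without wild-type replicate 1, 35 pairs were above 0, Spry1 with Etv4 being at -0.103, and 5 were at 0.8 or more. The highest were Fgfr1 with Spry2 (0.947), Fgfr2 with Fgfr3 (0.946) and Spry2 with Spry4 (0.939). Those 3 pairs were at 0.896, 0.876 and 0.843 without wild-type replicate 1. Dusp6, Spry1 and Etv4 had no pair at 0.8 or more. Dusp6 had r = 0.501 to Fgfr1, 0.377 to Fgfr2 and 0.349 to Fgfr3. It was closest to Spry1, at 0.764 with all mice and 0.740 without wild-type replicate 1. Etv4 was closest to Spry2 (0.659), and the lowest pair with all mice was Spry1 with Etv4 (0.104). All pairs share the libraries' total and cell makeup.

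The gene outside the group whose pattern was most like each member was found by Pearson r over the 10 libraries. It was Dab2 for Fgfr1 (0.988), Pcdhgc4 for Fgfr2 (0.985), Zfp827 for Fgfr3 (0.978), Yipf6 for Spry1 (0.946), Rab12 for Spry2 (0.981), Afap1l2 for Spry4 (0.972), Tnfsf10 for Dusp6 (0.954), Zfp707 for Etv4 (0.955) and Fam136a for Etv5 (0.977). Averaged over the 8 tested genes, the highest r belonged to the transcription factor genes Tbx2 (0.861), Hoxa11 (0.859) and Foxc1 (0.857). These are the closest of all genes compared and carry no test.

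The rest of the pathway was read from 5 lists of 65 genes, 64 of which were in the data and 41 passed the filter. Of the 41, 31 had lower and 10 higher estimates in null mice, beside 60% lower over all genes. The median of the 41 was -0.15. None passed the adjusted threshold (limma, smallest adjusted p = 0.311), and 9 (22.0%) were under an unadjusted p of 0.05, all lower, beside the 7.3% of all genes that were lower at that level. Expression was concentrated in few ligands: 4 of 18 passed the filter, Fgf1, Fgf2, Fgf7 and Fgf9, all with lower estimates, while Fgf4, Fgf8 and Fgf21 were listed at 0 in every library.

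Fgf2, the basic FGF held in cartilage matrix, had 11.3, 3.02, 3.93, 4.29 and 4.65 TPM in wild-type and 1.76, 2.84, 2.61, 2.87 and 1.58 TPM in null mice. The groups did not overlap, although wild-type replicate 2 was close to the highest null mice, and wild-type replicate 1 was far above the others. The log2 difference was -0.85 with a standard error of 0.271 (limma adjusted p = 0.319, exact permutation p = 0.00794, the smallest that test can give) and -0.59 without wild-type replicate 1. It was -0.47 over protein-coding transcripts alone (adjusted p = 0.343) and -0.16 with the osteoblast and osteocyte covariate (adjusted p = 0.965; limma).

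Of the other receptors and co-receptors, 7 of 11 passed the filter and all 7 had lower estimates, 4 of them under an unadjusted p of 0.05. Over all genes tested, 60% had a lower estimate and 7.3% were lower at that level. The lists were chosen with earlier results of these data known. Fgfr4 was listed at 0 in every library. Sdc4, a cell-surface heparan sulfate proteoglycan, had 107.2, 44.4, 40.5, 61.9 and 49.3 TPM in wild-type and 26.5, 35.4, 38.8, 36.5 and 34.1 TPM in null mice. Its groups did not overlap, and the gap between the lowest wild-type and the highest null mouse was small. Its difference was -0.72 (standard error 0.229, limma adjusted p = 0.319, exact permutation p = 0.00794), and -0.50 without wild-type replicate 1. Flrt2, a membrane protein that binds FGF receptors, had a wild-type mean of 3.16 ± 0.676 TPM and a null mean of 1.76 ± 0.701 TPM (SD, n = 5 each), a difference of -0.61 (limma adjusted p = 0.319, exact permutation p = 0.0317). With the osteoblast and osteocyte covariate the difference was -0.09 for Sdc4 and -0.11 for Flrt2.

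The 19 genes of the ERK cascade, among them the adaptor Frs2 and the kinase Araf, all passed the filter and were split evenly. Of these 11 had lower and 8 higher estimates, between -0.21 (Araf) and 0.17 (Hras), with a median of -0.02 and 0 under an unadjusted p of 0.05. Among other ERK inhibitors 6 of 10 were tested, 5 with lower estimates and 2 under an unadjusted p of 0.05. These were Spred1 (12.2 ± 1.26 and 8.95 ± 1.67 TPM, difference -0.42) and Dusp4, a nuclear phosphatase (2.11 ± 0.520 and 1.06 ± 0.422 TPM, difference -0.60; SD, n = 5 each), and both are named after their values were seen. Of the other ERK-responsive genes 5 of 7 were tested, 4 with lower estimates, and 1, the receptor Epha2, was under an unadjusted p of 0.05. Epha2, likewise named after its values were seen, averaged 7.27 ± 1.77 and 4.59 ± 0.947 TPM (SD, n = 5 each), with no overlap between the groups. Over all genes tested, 60% had a lower estimate and 7.3% were lower at an unadjusted p under 0.05 (limma). All 5 null mice were below all 5 wild-type mice for 1.06% of genes.

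**Figure D5:**
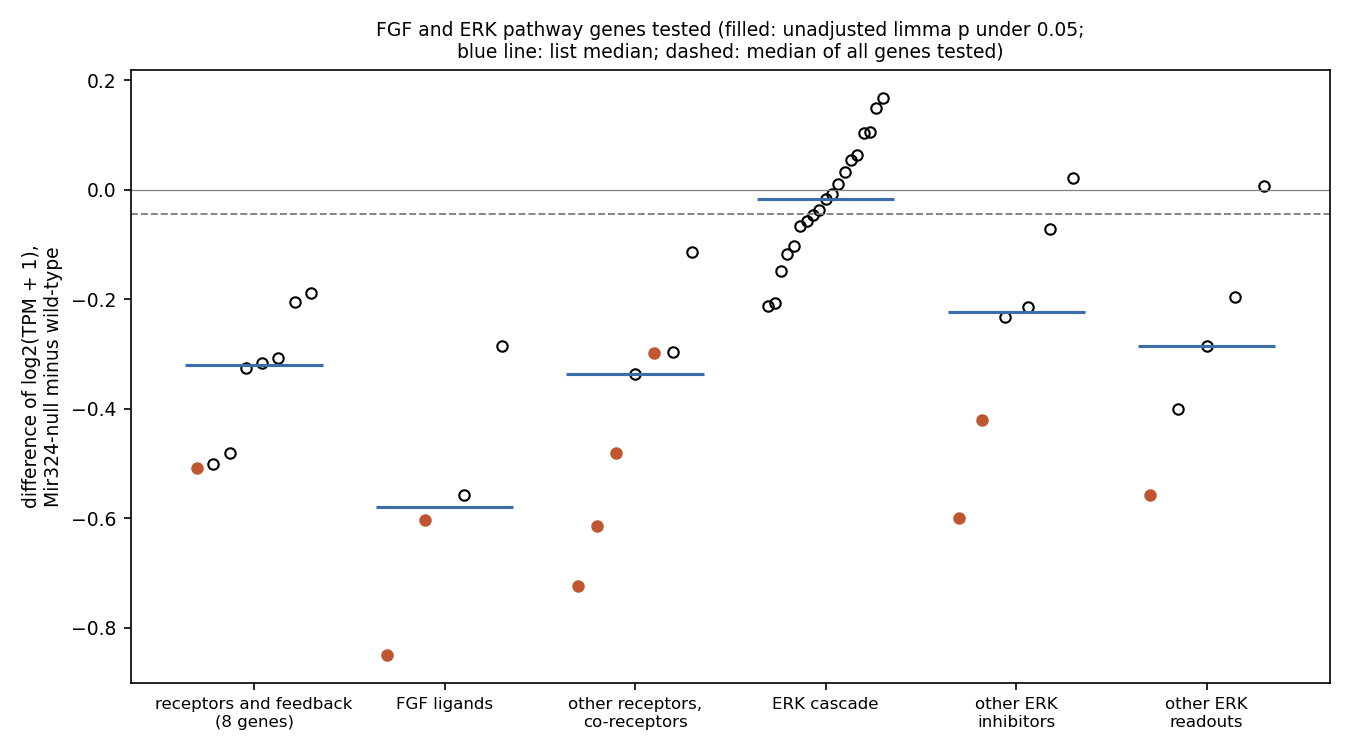
Difference of log2(TPM + 1), null minus wild-type, for the 8 receptor and feedback genes and the 41 other pathway genes tested, by list; filled points have an unadjusted limma p under 0.05, blue lines are list medians and the dashed line is the median of all genes tested (-0.05). The ERK cascade genes spread on both sides of 0, while all 4 FGF ligands and all 7 other receptors and co-receptors lie below it.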

How the data were processed

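The authors deposited a TPM table made with kallisto, per the submitters' processing notes, with 116912 versioned Ensembl mouse transcripts in 10 columns that each sum to 1000000. The notes name GRCh38, a human build, beside these mouse identifiers, and the index used is not given in the sources used here. TPM keeps no read depth, so no counting interval was computed. Identifiers without version were matched to GENCODE M21 (115440 matched) and TPM summed per gene. Genes averaging 1 TPM or more were compared as log2(TPM + 1), which understates differences of low genes, with limma 3.58.1 in R 4.3.3 (lmFit, eBayes with trend), all 10 libraries and no covariate, after the script was tested on simulated data. Single values were compared by two-sided exact permutation over all splits of the mice, and correlations by 100000 resamples, both with Benjamini-Hochberg adjustment within each family. Scripts ran in Python 3.11.15 with scipy 1.17.1. The 9 genes and all lists were chosen with earlier results of these data known. Named pathway genes were the 3 largest differences in each direction at an unadjusted p under 0.05, and none was higher. Genes of like pattern were, for each member, the highest r outside the group and the 3 highest mean r. Alternatives were pseudocounts of 0.5 and 0.1, other filters and scalings, protein-coding transcripts alone, robust eBayes, the score covariate, a replicate block and each mouse left out. Labels do not give litters or batches, and 0 columns belonged to other samples. Some sequences and 1 gene of the lists are not reported here.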

Additional observations from a re-analysis of the deposited data

Results flagged for a closer look

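In groups of 5 mice, a value was marked where its gap to the nearest other mouse exceeded 0.710 of the group's range, which chance gives in about 1 in 20 groups, and 5 of 76 groups were marked. Spry2 in wild-type replicate 1 had 9.45 TPM, beside 4.98 to 5.69 TPM in the other wild-type mice. Fgf2 in the same mouse had 11.3 TPM, beside 3.02 to 4.65 TPM. The transcript Etv5-201 held 57.2% of Etv5 in that mouse, beside 94.8% to 100% in the others. The skeletal muscle score was 2.20 in wild-type replicate 3, beside 2.53 to 2.55. The adipocyte score was 5.89 in null replicate 3, beside 5.05 to 5.24 in the other null mice.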

How the results depend on the processing

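No member passed an adjusted p of 0.05 (limma) under any alternative run. Genes past that threshold were 0 of all tested, 2 with the osteoblast and osteocyte covariate (Has1 and Tppp3), and 0 to 1 with a mouse left out (Gm37419 without wild-type replicate 3, Igkv2-109 without wild-type replicate 4, Rpl30-ps9 without null replicate 1), all named after their values were seen. Genes at an unadjusted p under 0.05 numbered 1603, 821 with that covariate and 1106 to 1927 with a mouse left out. Members at that level numbered 1, but 0 after rescaling without haemoglobin genes, 3 over protein-coding transcripts alone, 0 with the covariate, 0 to 3 with a mouse left out, and 0 with median ratio scaling without wild-type replicate 1, an alternative chosen after seeing the data. Over protein-coding transcripts alone, 1640 of 12292 genes were under it. With a mouse left out, Fgfr1 was under it without wild-type replicate 3 or null replicate 3, Fgfr3 without wild-type replicate 3 or 5, and Spry1 without wild-type replicate 5. Pathway genes at that level numbered 9, 2 with the covariate and 7 to 13 with a mouse left out. Relations to marker scores past adjustment numbered 15, 11 after median ratio scaling and 0 without the 2 farthest libraries. The sign turned with the covariate for Fgfr1 (0.32), Fgfr2 (0.087), Fgfr3 (0.18), Spry2 (0.23), Spry4 (0.13) and Etv5 (0.069), and for Etv4 (-0.06; range with a mouse left out -0.20 to 0.050) without wild-type replicate 1 (0.0026) or null replicate 5 (0.050); the cause was not tested.

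The labels do not say whether replicate numbers pair the mice. The correlations of same-numbered deviations lay between -0.144 and 0.0564, which cannot show whether the mice were paired by litter or handling. With a replicate block 1 member was under an unadjusted p of 0.05, 0 genes passed adjustment and 1168 genes were under the unadjusted threshold. The values hold no read depth, so the precision of low genes such as Etv4 and Spry4 is unknown.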
